A study of Mus musculus with 8 samples.

Results

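The Eph receptors and ephrins described here were 10 genes of the mouse genome: the receptors *Epha3*, *Epha4*, *Epha5*, *Epha7*, *Ephb1*, *Ephb2* and *Ephb3* and the ligands *Efna5*, *Efnb1* and *Efnb2*. The list of symbols was made with earlier results of these data known. These genes are 10 of the 28001 features of the deposited matrices, and all 10 were found in all 8 libraries. Ephs are the largest family of receptor tyrosine kinases, and their ligands, the ephrins, sit in the membrane of the neighbouring cell, so that signalling needs contact between cells. A-type ephrins are held by a lipid anchor and B-type ephrins span the membrane. EphA receptors mostly bind the former and EphB receptors the latter, with EphA4 able to bind both kinds, and signals run into the receptor cell and back into the ephrin cell. Contact through these pairs repels or sorts cells and guides axons, and in the limb bud it is known from the paths of motor axons, the positions of migrating muscle precursors and the shaping of cartilage condensations.

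Forelimb cells were profiled by droplet single-cell RNA-seq in 8 libraries, each cell's transcripts being counted by unique molecular identifiers (UMIs). All embryos were C57BL/6J, with CreERT2 in both alleles of *Hic1*, which encodes a transcription factor of quiescent mesenchymal progenitors, and a Cre-dependent tdTomato reporter in both alleles of Rosa26. Dams over 7 weeks of age received 7.5 mg of tamoxifen by gavage at embryonic day 10, so tdTomato marks cells that had *Hic1* activity around that time and their progeny. Sorted tdTomato+ cells came from pooled forelimbs on each day from E11.5 to E14.5, and at E16.5 separately from a proximal part (distal stylopod, proximal zeugopod and elbow) and a distal part (distal zeugopod and autopod). Both whole limb libraries (whole 1 and whole 2) were of E11.5 and held tdTomato+ and tdTomato- cells alike. Both *Hic1* alleles carried CreERT2 in the whole limbs too, so no group has unmodified *Hic1* alleles. Sorting removed cells bearing surface markers of blood or endothelium.

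Of 57469 barcodes, 53085 cells had at least 3000 UMIs and at most 10% mitochondrial UMIs, with a median of 6788 to 18473 UMIs per cell in the 8 libraries and 32957305 to 236408650 UMIs per library. The mesenchymal cells used below leave out myogenic-, epithelial- and endothelial-like clusters and numbered 3165 to 10173 per library. The labels were checked first: tdTomato stood at 430 to 1410 UMIs per 1000000 UMIs (CPM) in the sorted libraries against 3.77 and 4.32 in the whole limbs, and *Hoxa13*, a gene of the future hand plate, at 0.507 CPM in the E16.5 proximal against 31.7 in the distal library. Whole 1 and whole 2 differed by more than counting noise (chi-square per degree of freedom 16.8 over 14248 genes) and were kept as 2 samples, but nothing says that they came from separate embryos, so p-values measure the spread between these 2 samples only. Each sorted group is 1 library: its intervals are 95% exact Poisson intervals and cover counting error only. Per the study's methods, the sorted E11.5 to E13.5 libraries were made with the v2 reagent kit and the later ones with v3. Limbs of E11.5 and E12.5 were digested with dispase, and those of E13.5 and later with collagenase and pronase. Levels are CPM of mesenchymal UMIs and are not divided by transcript length, so they are compared within a gene and not between genes; in such sums, fewer cells with a transcript and less transcript per cell cannot be told apart.

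In the GENCODE M21 annotation of GRCm38, the 10 genes are protein coding and lie apart on 8 chromosomes: *Epha3* at chr16:63543534-63864175, *Epha4* at chr1:77367185-77515088, *Epha5* at chr5:84054761-84417382, *Epha7* at chr4:28813131-28967499, *Ephb1* at chr9:101922128-102354693, *Ephb2* at chr4:136647539-136835988, *Ephb3* at chr16:21204755-21223305, *Efna5* at chr17:62604184-62881317, *Efnb1* at chrX:99136130-99148991 and *Efnb2* at chr8:8617434-8661242. *Epha7* and *Ephb2* share a chromosome, as do *Epha3* and *Ephb3*.

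The EphA receptors differed widely in how they changed with stage. *Epha4*, the receptor for both ephrin classes, stood at 212 CPM in sorted cells of E11.5 (207 to 217), then at 150, 137 and 105 on the following days to E14.5, and at 68.6 in proximal and 102 in distal cells of E16.5, against 181 and 182 in the whole limbs. Its sorted levels thus ran downwards with stage, the proximal E16.5 library being lowest, and the interval of the ratio of E16.5 distal to E14.5 (0.955 to 0.999) came close to 1. *Epha3*, a receptor for A-type ephrins, ran the other way at the start, with 4.06 CPM at E11.5 (3.39 to 4.83) and 33.8 a day later, then 43.9 at E13.5 and 33.1 at E14.5, and 27.8 in proximal and 17.1 in distal cells of E16.5. The whole limbs lay at 15.7 and 16.3, above the sorted cells of the same day and near the E16.5 distal level.

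*Epha7*, a receptor whose expression in the hand plate is known to depend on *Hoxa13*, was on a plateau from E11.5 to E13.5 (106, 116 and 110 CPM), was lower at E14.5 (49.9 CPM) and in proximal (29.2) and distal cells (38.4) of E16.5, and stood at 43.8 and 45.9 CPM in the whole limbs. E11.5 and E13.5 did not differ beyond counting error (ratio 1.03, 0.986 to 1.08). *Epha5*, best known as a receptor of topographic axon maps, varied least of the EphA receptors among the sorted libraries: 31.0, 26.1, 43.7 and 54.1 CPM from E11.5 to E14.5, then 34.2 in proximal and 49.2 in distal cells of E16.5, with 19.9 and 23.5 in the whole limbs.

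Of the EphB receptors, *Ephb1* was low throughout and lowest in one segment: 5.46, 7.35, 5.84 and 7.27 CPM from E11.5 to E14.5, 0.487 in E16.5 proximal (97 UMIs in all), 7.76 in E16.5 distal and 1.18 and 1.31 in whole limb cells. *Ephb3* shared the drop in the proximal segment, with 19.1, 20.7, 14.7 and 19.2 CPM from E11.5 to E14.5, 4.15 in E16.5 proximal, 18.8 in E16.5 distal and 8.99 and 9.48 in whole limb cells. The levels of both genes in the E16.5 distal library and at E14.5 could not be told apart by counting error (*Ephb1* ratio 1.07, 0.980 to 1.16, and *Ephb3* ratio 0.980, 0.929 to 1.03). *Ephb2*, which also binds ephrin-A5, moved upwards instead: 12.6, 16, 15.5 and 27.9 CPM from E11.5 to E14.5, 26.8 in E16.5 proximal and 53.3 in E16.5 distal cells, the whole limbs being at 24.8 and 25.9. E12.5 and E13.5 were alike within counting error, as were E14.5 and E16.5 proximal (ratio 0.960, 0.921 to 1.00).

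All 3 ligands were above 25 CPM in every library. *Efna5*, the A-type ligand, stood at 65.7, 90.9, 98.1 and 72.5 CPM from E11.5 to E14.5, then at 42.5 in E16.5 proximal and 99.1 in E16.5 distal cells, with 43.6 and 40.9 in the whole limbs. Its highest levels, E16.5 distal and E13.5, had overlapping intervals (97.6 to 101 and 95.2 to 101). *Efnb1*, the X-linked B-type ligand that patterns the skeleton and whose loss disturbs digit formation, held at 87.5, 89.8 and 94.8 CPM to E13.5 and was lower at E14.5 (63.1), in E16.5 proximal (45.4) and in E16.5 distal cells (35.4); the whole limbs were highest at 103 and 104. *Efnb2*, the other B-type ligand, known from arteries and lymphatic valves, was flat (48.8, 45.9, 50.8 and 50.8 CPM from E11.5 to E14.5), with 46.2 CPM in E16.5 distal but 27.4 in E16.5 proximal cells and 28.4 and 34.5 in the whole limbs. The whole limb pair differed more for *Efnb2* than for the other ligands.

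**Figure D1:**
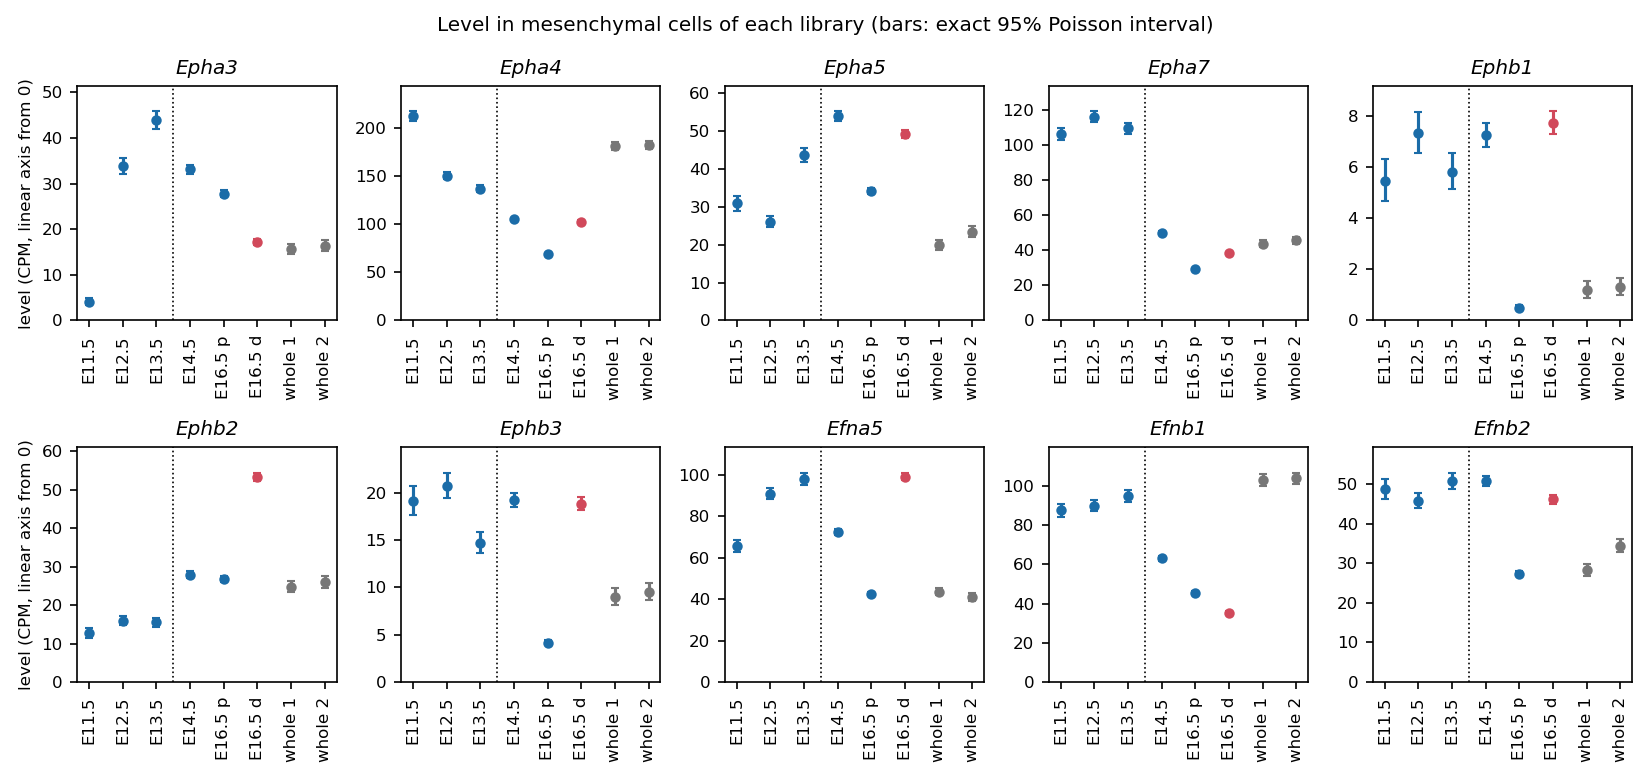
Level (CPM, linear axis from 0, a panel per gene) of the 10 Eph receptors and ephrins in mesenchymal cells of the 6 sorted tdTomato+ libraries and the 2 whole limb libraries; points are libraries and bars are 95% Poisson intervals, which cover counting error only. *Ephb1* (0.487 CPM) and *Ephb3* (4.15 CPM) dip in the E16.5 proximal library, and *Epha3* is lowest in the sorted E11.5 library (4.06 CPM).

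Whether purified lineage cells differed from the limb as a whole at the same age was asked by comparing the sorted E11.5 library with both whole limb libraries, over summed UMIs of mesenchymal cells with edgeR. *Epha3* was 4.47-fold lower in the sorted cells (4.06 CPM against 15.7 and 16.3, log2 fold change -2.16 ± 0.17, SE, edgeR adjusted p = 1.29e-33), and *Ephb2* was 2.28-fold lower (12.6 against 24.8 and 25.9, -1.19 ± 0.14, adjusted p = 3.18e-16). *Ephb1* was 3.85-fold higher (5.46 against 1.18 and 1.31, 1.95 ± 0.22, adjusted p = 4.67e-17), *Epha7* 2.09-fold higher (1.06 ± 0.10, adjusted p = 1.98e-25) and *Ephb3* 1.82-fold higher (0.87 ± 0.14, adjusted p = 1.53e-08). For each of these 5 genes the sorted value lay outside the pair of whole limb values by far more than the pair differed. The ligands moved less: *Efna5* and *Efnb2* were higher by 0.45 each on the log2 scale (SE 0.10 and 0.11), and *Efnb1* was lower (-0.42 ± 0.10). *Epha5* was just called higher (0.33 ± 0.12, adjusted p = 0.0176), and *Epha4* was not called (0.04 ± 0.10, adjusted p = 0.731).

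In all, 9 of the 10 genes were called, 6 higher and 3 lower, where 53.2% of the 15104 genes tested were called, so most genes of this comparison passed; the median log2 fold change was 0.39 over the 10 genes and 0.01 over all genes. The sorted library has no replicate, and its spread was taken from the whole limb pair. The cell makeup differed: *Hoxd13* stood at 7.56 CPM in the sorted E11.5 cells against 133 and 114 in the whole limbs. When only cells with *Meis1* or *Meis2* and without *Hoxa13* or *Hoxd13* transcripts were compared, *Epha3* kept its sign at a smaller size (-0.88, adjusted p = 0.00213), as did *Ephb1* (1.29), *Ephb2* (-0.93), *Epha7* (0.64) and *Ephb3* (0.61), but *Efna5* was at -0.16 (adjusted p = 0.240) and *Efnb2* turned to -0.73 (adjusted p = 1.48e-09). *Epha5* lost its call in that comparison, with DESeq2, with limma and without the filter on low counts. Summed markers of red blood cells (8 genes) were at 288 CPM in whole 1, 4.90 in whole 2 and 0.381 in the sorted cells, with 4 globin genes at 0 in the latter, and the ribosomal protein gene *Rps27* at 1926 CPM against 44.2 and 59.6; their part in the result was not tested. The headers of the whole limb matrices name no counting software version. The version that the study's reporting summary gives for all single-cell data is not the one in the header of the sorted E11.5 matrix. Whether both sides were counted by the same version therefore cannot be told from these sources. With library totals in place of TMM factors all log2 values shifted by a median of 0.182, the calls over all genes were 5407 higher and 2432 lower in place of 4048 and 3991, and *Epha4* was then called (0.23, adjusted p = 0.0472).

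Within the whole limbs, the proximal-distal axis was read from transcripts of the cells themselves. Mesenchymal cells with at least 1 UMI of *Hoxa13* or *Hoxd13* (Hox13 cells, 1844 and 1816 in whole 1 and whole 2), transcription factors of the future hand plate, were set against cells with *Meis1* or *Meis2*, factors of the proximal limb, and neither Hox gene (Meis cells, 1520 and 1719). Both groups came from the same 2 libraries, and library was a term of the edgeR fit. The EphA receptors split. *Epha4* was higher in Hox13 cells in both libraries, at 236 against 129 CPM in whole 1 and 235 against 146 in whole 2 (0.82 ± 0.03, edgeR adjusted p = 1.43e-126), and so was *Epha3*, at 16.1 against 7.94 and 17.0 against 8.25 CPM (1.07 ± 0.12, adjusted p = 5.73e-19). *Epha7* was 3.48-fold lower, at 20.6 against 75.4 and 21.2 against 74.6 CPM (-1.80 ± 0.06, adjusted p = 7.16e-164). *Epha5* did not differ detectably (-0.03 ± 0.08, adjusted p = 0.824).

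Of the ligands, *Efnb2* had the largest difference among the 10 genes, 3.92-fold lower in Hox13 cells, at 15.2 against 59.8 CPM in whole 1 and 17.9 against 73.7 in whole 2 (-1.97 ± 0.07, adjusted p = 3.35e-165). *Efna5* was 2.37-fold lower (29.6 against 70.0 and 25.6 against 64.7 CPM, adjusted p = 9.45e-86), while *Efnb1* was slightly higher (110 against 87.7 and 110 against 89.5 CPM, 0.35 ± 0.04, adjusted p = 6.43e-15). *Ephb1* was lower as well, on few transcripts (0.487 against 2.97 and 0.939 against 2.75 CPM, -1.96 ± 0.31, adjusted p = 1.13e-09), *Ephb2* was higher (29.2 against 20.6 and 31.7 against 21.9 CPM, 0.56 ± 0.08), and *Ephb3* was only just called lower (-0.28 ± 0.13, adjusted p = 0.0472), a call lost in 8 of the alternatives. So 9 of 10 were called, 4 higher and 5 lower, where 52.1% of 12824 genes were called. For all 9 called genes, both values of one cell group lay above both of the other. The Hox13 cells were deeper (medians of 11016.5 and 10237 UMIs against 7635 and 7614). Thinned to 3000 UMIs per cell, the 8 genes other than *Ephb3* were still called in the same direction, with *Efnb2* at -1.89 and *Epha4* at 0.72.

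The promoters of *Epha4* and *Epha3*, higher in Hox13 cells, and of *Efnb2* and *Epha7*, higher in Meis cells, are shown because these genes moved in opposite directions along the same axis. They are RefSeq sequences of the GRCm38.p6 build, 250 bases before to 50 after the annotated start, 5′ to 3′ on the gene's strand: *Epha4* chr1:77515039-77515338 (minus strand), *Epha3* chr16:63864126-63864425 (minus), *Efnb2* chr8:8661193-8661492 (minus) and *Epha7* chr4:28812881-28813180 (plus). Capitals mark matches to 2 motifs searched on both strands, a HOX13-type TTTATT (reverse AATAAA) and a MEIS-type TGACAG (reverse CTGTCA), which do not overlap each other here. All 10 genes had an entry.
Epha4: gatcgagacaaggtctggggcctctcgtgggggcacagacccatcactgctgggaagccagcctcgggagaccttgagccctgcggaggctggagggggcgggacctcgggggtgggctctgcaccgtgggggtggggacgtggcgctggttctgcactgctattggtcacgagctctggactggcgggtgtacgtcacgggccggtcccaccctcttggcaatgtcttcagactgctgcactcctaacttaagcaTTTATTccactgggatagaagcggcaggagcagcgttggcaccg
Epha3: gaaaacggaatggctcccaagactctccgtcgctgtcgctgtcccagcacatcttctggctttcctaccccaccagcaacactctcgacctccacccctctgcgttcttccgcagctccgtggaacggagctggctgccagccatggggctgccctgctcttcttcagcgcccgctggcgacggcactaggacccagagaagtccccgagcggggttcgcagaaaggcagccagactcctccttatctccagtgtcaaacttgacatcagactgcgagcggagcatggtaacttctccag
Efnb2: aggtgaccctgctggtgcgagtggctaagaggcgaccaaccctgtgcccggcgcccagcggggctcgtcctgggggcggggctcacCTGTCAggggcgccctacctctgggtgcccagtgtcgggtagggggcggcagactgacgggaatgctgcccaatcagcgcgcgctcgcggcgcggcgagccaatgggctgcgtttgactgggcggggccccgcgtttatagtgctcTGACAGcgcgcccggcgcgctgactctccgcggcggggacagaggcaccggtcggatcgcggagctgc
Epha7: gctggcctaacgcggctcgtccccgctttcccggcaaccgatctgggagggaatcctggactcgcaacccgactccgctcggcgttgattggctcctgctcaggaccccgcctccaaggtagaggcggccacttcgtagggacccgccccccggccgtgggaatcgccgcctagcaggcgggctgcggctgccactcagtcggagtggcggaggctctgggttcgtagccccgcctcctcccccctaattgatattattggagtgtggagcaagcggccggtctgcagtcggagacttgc
Among the 10 promoters, TTTATT occurred in *Epha4* alone, at position 257 of the window, and the MEIS-type motif in *Efnb2* alone, at positions 87 and 233. Of 27025 promoters of this length, 20% held the first and 19.3% the second motif, beside 1 of 10 genes here for each. The matches describe letters in these windows and say nothing of binding.

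Muscle precursors migrate into the limb and meet its mesenchyme at this age, and clusters with myogenic markers were found in the whole limb libraries alone. Cells with UMIs of at least 2 of 6 myogenic genes (*Pax3*, *Pax7*, *Myf5*, *Myod1*, *Myog* and *Lbx1*; 301 and 270 cells) were compared with mesenchymal cells that had none of them (4845 and 5051). *Epha4* was far lower in myogenic cells, at 36.6 against 180 CPM in whole 1 and 27.9 against 180 in whole 2 (-2.30 ± 0.07, edgeR adjusted p = 5.21e-209). *Epha3* went the opposite way, at 44.2 against 15.0 and 44.0 against 15.5 CPM (1.70 ± 0.11, adjusted p = 1.76e-49).

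Both B-type ligands were lower in the myogenic cells: *Efnb1* at 33.2 against 102 and 30.3 against 103 CPM (-1.52 ± 0.08) and *Efnb2* at 11 against 29.1 and 13.8 against 34.8 CPM (-1.20 ± 0.14). *Epha7* (12.3 against 44.9 and 17.4 against 46.9 CPM, -1.48 ± 0.12) and *Ephb2* (10.5 against 25 and 14.7 against 25.9 CPM, -0.87 ± 0.15) were lower as well. *Efna5* was slightly higher (46.0 against 43.5 and 46.1 against 41.5 CPM, 0.28 ± 0.09, adjusted p = 0.00556), a call lost after thinning, with DESeq2 and with library totals in place of TMM. *Epha5*, *Ephb1* and *Ephb3* were not called. That made 7 of 10 genes called, 2 higher and 5 lower, against 41.4% of 13372 genes, with a median of -0.60 over the 10 genes and -0.03 over all genes. Over all genes, 2937 were called higher and 2597 lower, but 1908 and 4593 with library totals in place of TMM, where the median was -0.20. With the myogenic-like clusters instead of single cells, 7 of the 10 genes were called, where 5659 of 13463 genes were.

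**Figure D2:**
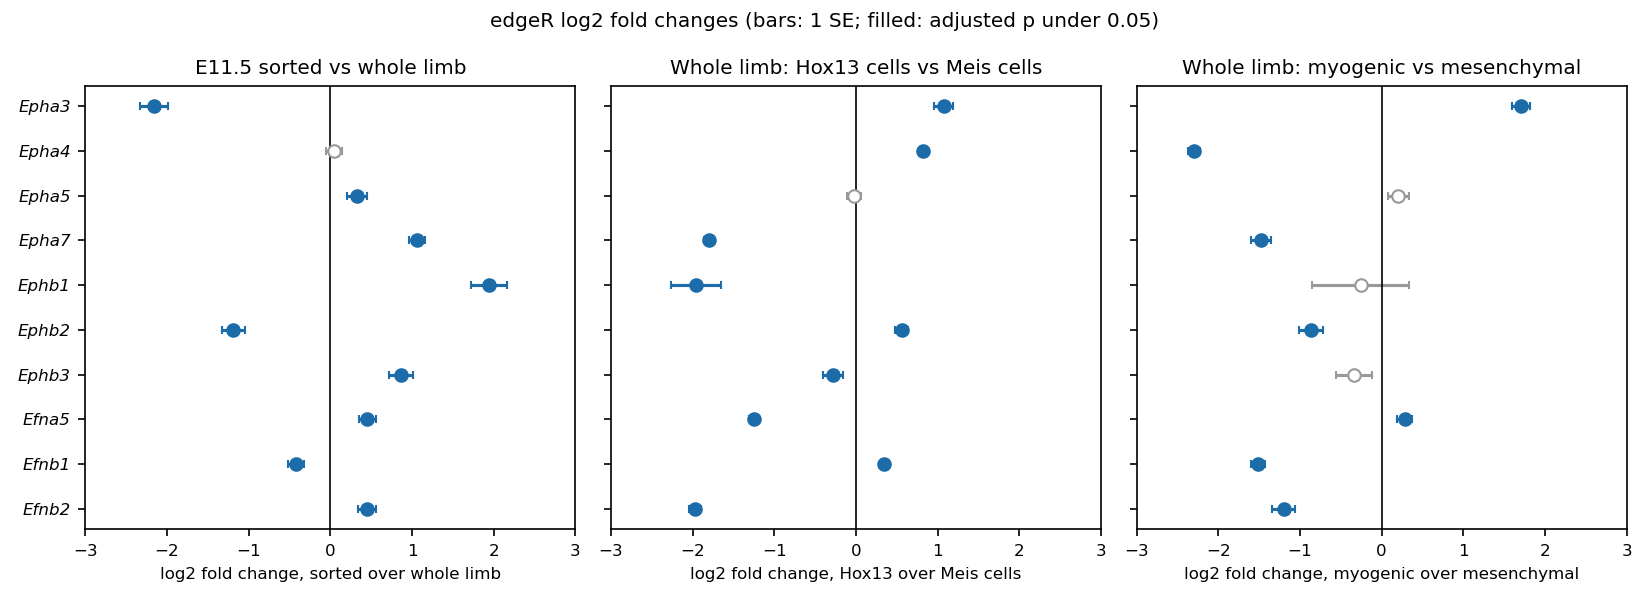
Log2 fold changes of the 10 genes in the 3 comparisons tested with edgeR (sorted E11.5 against whole limb, Hox13 against Meis cells, myogenic against mesenchymal cells), with bars of 1 SE; filled points passed an adjusted p of 0.05. *Epha3* is lower in sorted cells (-2.16) and higher in Hox13 (1.07) and myogenic cells (1.70), and *Epha4* is at 0.82 in Hox13 and -2.30 in myogenic cells.

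Along the sorted lineage, with 1 library per stage, no test was run, and a difference was counted at 2-fold or more. From E11.5 to E13.5, within the v2 kit but across the change of digestion, *Epha3* was 10.8-fold higher (9.03 to 13). It was the only one of the 10 genes past 2-fold, where 10.2% of genes were. Most of that difference was already there at E12.5 (8.32-fold, 6.94 to 10.0; 1 of 10 genes against 4.32% of genes). *Efna5* was 1.49-fold and *Epha5* 1.41-fold higher at E13.5 than at E11.5, and *Epha4* 1.55-fold lower. From E13.5 to E14.5, which crosses the change of kit, *Epha7* was 2.20-fold lower (2.12 to 2.28), the single gene of 10 past 2-fold against 11.6% of genes, and *Ephb2* was 1.80-fold higher.

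Between E14.5 and the E16.5 proximal library, *Ephb1* was 14.9-fold lower (12.1 to 18.6) and *Ephb3* 4.64-fold lower (4.28 to 5.02). Those were 2 of 10 genes past 2-fold against 12.7% of genes. All 10 genes had a lower level in the E16.5 proximal library, though *Ephb2* within counting error, with a median log2 ratio of -0.71. Most genes were lower there too, the median over all genes being -0.18, and their exact share was not counted. Within the 6 classes found in both libraries, *Ephb3* was 2.71-fold to 7.50-fold lower and *Ephb1* 2.56-fold to 13.5-fold lower, *Ephb1* on few UMIs in several. The share of all genes that were 2-fold lower in every one of these classes was not counted. *Epha3*, however, was higher in 4 of the 6, at most 2.61-fold. Between E14.5 and the E16.5 distal library none of the 10 reached 2-fold, against 16.1% of genes. The nearest were *Epha3*, 1.93-fold lower, and *Ephb2*, 1.91-fold higher. Within the 6 classes found in both libraries, some genes spread wider. *Epha5* ran from 4.11-fold lower to 3.92-fold higher, and *Epha3* from 3.27-fold lower to 2.36-fold higher. The E14.5 library was made from whole forelimbs, so stage and segment cannot be told apart in either of these comparisons. *Hoxa13* stood at 16.8 CPM at E14.5, between the E16.5 segments.

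At E16.5 the segments of the limb were compared directly. *Ephb1* was 15.9-fold higher in the distal library (12.9 to 19.8), *Ephb3* 4.54-fold (4.20 to 4.91) and *Efna5* 2.33-fold (2.27 to 2.40). These 3 of 10 genes passed 2-fold, where 7.04% of all genes did. *Ephb2* came next at 1.99-fold (1.92 to 2.06), followed by *Efnb2* (1.68-fold), *Epha4* (1.49-fold), *Epha5* (1.44-fold) and *Epha7* (1.31-fold). *Epha3* and *Efnb1* were the exceptions, 1.62-fold and 1.28-fold lower in the distal library. Over the 10 genes the median log2 ratio was 0.67, and over all genes 0.10. The libraries used the same kit and were counted with different versions of Cell Ranger, and with 1 library per segment a library effect and a segment effect cannot be told apart. Summed epithelial markers (9 genes) were at 83.3 CPM in the proximal and 53.8 in the distal mesenchymal cells, red blood cell markers (8 genes) at 110 and 75.7 and myogenic markers (8 genes) at 38.3 and 14.6, and their part in the result was not tested.

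The segments hold different cells, so the same ratios were taken within the 6 classes found in both: chondrocyte-like (762 proximal and 450 distal cells), dermal fibroblast-like (1133 and 1242), fibroblast-like (2139 and 1195), mitotic (808 and 809), pericyte-like (374 and 62) and tenocyte-like cells (710 and 461). Classes were named from markers, and no Eph or ephrin gene was used to form them. *Ephb3* was higher in distal cells of every class, from 3.01-fold in dermal fibroblast-like cells (28.6 against 9.50 CPM) to 6.13-fold in chondrocyte-like cells (26.0 against 4.24 CPM). The values between were 3.06-fold in pericyte-like (14 distal and 26 proximal UMIs, in cells of different clusters in the segments), 3.40-fold in tenocyte-like, 4.68-fold in mitotic and 5.28-fold in fibroblast-like cells. Only 0.473% of 10152 genes were at least 2-fold higher in all 6 classes. *Ephb3* also passed 2-fold in 7 of 7 classes when the segments were clustered together. It did so too in 11 of 11 sets of cells with at least 3 markers of a class. These marker sets overlap, since a cell could fall in several, so the 11 are not separate checks. All 6 classes of a segment share 1 library.

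*Ephb1* was also higher in all 6 classes (24.9% of genes were) and at least 2-fold so in 5 of 6, which held for 1.31% of genes, but on few UMIs in several. It had 71 UMIs in distal and 18 in proximal fibroblast-like cells (6.53-fold, 3.85 to 11.6), 81 and 18 in mitotic cells (5.0-fold, 2.97 to 8.86) and 9 and 5 in dermal fibroblast-like cells (1.77-fold, 0.532 to 6.72). Tenocyte-like cells held 88 UMIs in the distal and 1 in the proximal library, chondrocyte-like cells 5 and 0, and pericyte-like cells 4 and 2. The last 2 classes are too thin to read a size from. Thinned to 3000 UMIs per cell, *Ephb1* was higher in 4 of 6 classes. *Efnb2* was higher in all 6 as well, between 1.14-fold in fibroblast-like and 3.19-fold in chondrocyte-like cells.

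*Efna5* was higher in distal cells of 5 classes, at most 4.16-fold in mitotic cells (134 against 32.2 CPM) and 3.84-fold in chondrocyte-like cells (69.7 against 18.1 CPM), and within counting error in pericyte-like cells. *Ephb2* was higher in 7 of 7 classes with the segments clustered together and in 11 of 11 of the overlapping marker sets. Of the 6 classes it was higher in 5 and lower in pericyte-like cells (17 UMIs, 11.2 against 39.8 CPM). That class was made of different clusters in the segments: mostly *Ccl11*- and *D630033O11Rik*-led cells in the proximal library and *Myh11*-, *Acta2*- and *Rgs5*-led cells in the distal one. In the proximal pericyte-like cluster led by *Rgs5*, *Gm13889* and *Myh11*, *Ephb2* was at 4.42 CPM, below the distal 11.2 CPM, so the sign depended on the cells compared. *Efnb1* was lower in all 6 classes, as 16.5% of genes were, with a range from 1.15-fold to 2.07-fold and counting intervals that include 1 in chondrocyte-like (0.728 to 1.04) and tenocyte-like cells (0.608 to 1.00), but higher in 3 of 7 classes when the segments were clustered together and in 1 of 6 at a finer clustering resolution. *Epha3* was lower in 5 of 6 (3.05-fold in fibroblast-like cells, 34.5 against 11.3 CPM, and within counting error in tenocyte-like cells, 0.754 to 1.10) and 3.23-fold higher in distal chondrocyte-like cells (16.7 against 5.16 CPM). These *Epha3* sizes depended on how classes were made: 4 of 6 classes were at least 2-fold lower and 1 at least 2-fold higher. With joint clustering these were 2 and 1 of 7, and at the finer resolution 4 and 0 of 6. Of the 11 overlapping marker sets they were 1 and 0.

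*Epha5* showed opposite signs at the levels of library and class. It was 1.44-fold higher in the distal library as a whole, yet lower in 5 of the 6 classes, most of all in tenocyte-like cells (42.1 CPM distal against 152 proximal, 3.60-fold lower) and in pericyte-like cells on 6 UMIs; in mitotic cells it was 1.95-fold higher. The distal *Epha5* transcripts lay partly outside these classes, at 215 CPM in joint-like cells and 77.5 CPM in the pooled unnamed clusters. That pattern depended on how classes were made. *Epha5* was higher in 5 of 7 classes with joint clustering and in 10 of 11 of the overlapping marker sets.

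**Figure D3:**
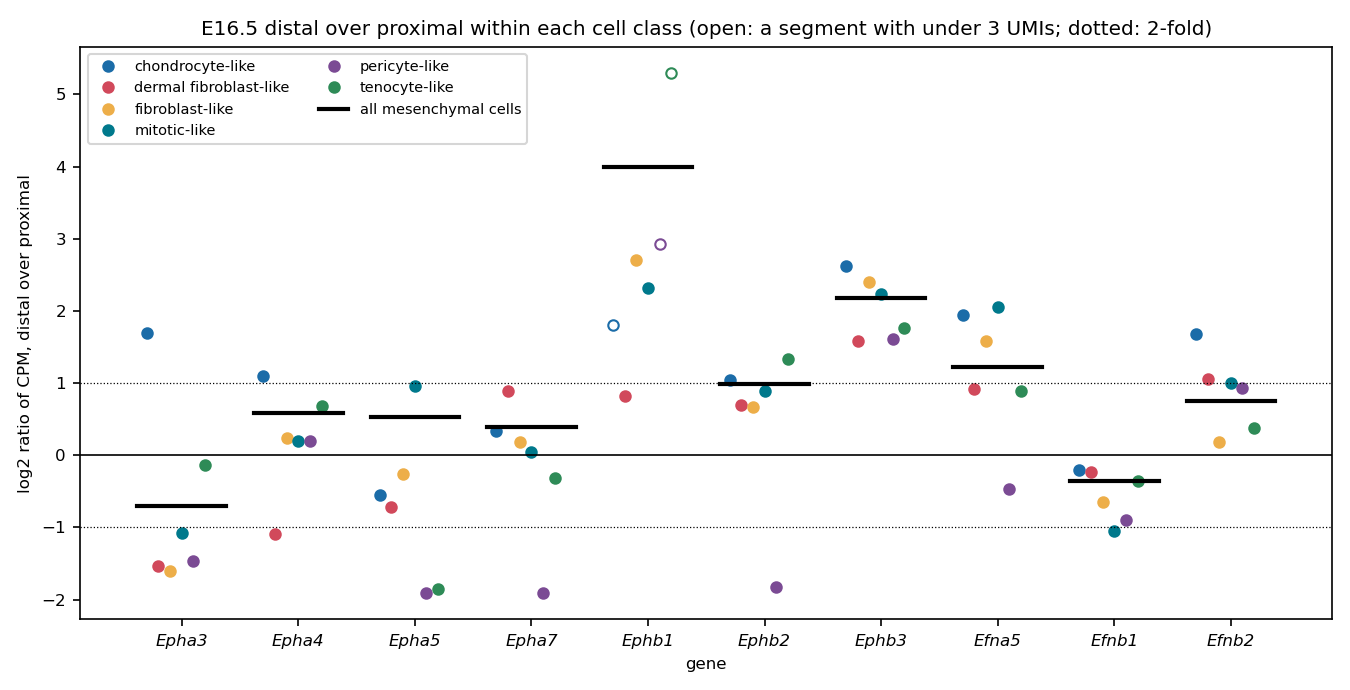
Log2 ratio of CPM, E16.5 distal over proximal, of the 10 genes within the 6 classes present in both segments; each point is 1 class (open where a segment had under 3 UMIs, which were set to 3 in the ratio), black bars are the ratio over all mesenchymal cells, and dotted lines mark 2-fold. *Ephb3* lies beyond 2-fold in all 6 classes (3.01-fold to 6.13-fold), while *Epha3* and *Epha5* have points on both sides of 0.

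Between cell classes of the same library, the family was uneven. Over 31 pairs of a class and a sorted library, each against the other mesenchymal cells of its library, 81 of 295 ratios of the 10 genes with at least 5 CPM on either side were past 2-fold (27.5%), where 10.5% of such ratios over all genes were. *Ephb1* (18 of 24), *Epha5* (16 of 31), *Epha3* (11 of 29) and *Efna5* (10 of 31) made up most of them, and *Epha4*, *Ephb3* and *Efnb2* had 3 each. With sets of cells holding at least 3 markers in place of clusters, both shares were lower: 57 of 556 ratios of the 10 genes (10.3%) against 5.51% over all genes. These sets overlap, as a cell could fall in several, so their ratios cannot be set beside those of separate clusters.

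The A-type ligand *Efna5* was high in classes with dermal markers: dermal fibroblast-like cells held 147 CPM at E13.5 (1.57-fold over the other cells), 155 at E14.5 (2.51-fold), 124 at E16.5 proximal (3.63-fold) and 233 at E16.5 distal (2.90-fold). At E13.5 the tenocyte-like cells were as high (151 CPM, 1.57-fold). Clusters without a class name held high levels too, at 299 CPM in an E12.5 cluster led by *Alx1*, *Grin3a* and *Grem1* and 216 CPM in an E13.5 cluster led by *Alx1*, *Grem1* and *Tmeff2*, and one led by *Sp5*, *Nrgn* and *Lix1* held 141 CPM in the E16.5 proximal library. In dermal fibroblast-like cells of E13.5, *Epha5* was 3.40-fold, *Epha7* 1.98-fold and *Epha3* 1.45-fold lower than in the rest, while *Epha4* was at 144 against 136 CPM. All 4 EphA receptors were lower in those of the 3 later libraries. In these 3, ordered by stage with the proximal segment before the distal one, *Epha3* stood at 4.38, 6.37 and 2.19 CPM (8.39-, 4.71- and 8.77-fold lower than in the rest), and *Epha5* at 12.2, 4.88 and 2.97 CPM (4.86-, 7.64- and 18.7-fold lower). *Epha4* was 2.48-fold lower at E14.5, 1.65-fold lower at E16.5 proximal (43.1 against 71.2 CPM) and 5.63-fold lower at E16.5 distal, and *Epha7* was between 2.00-fold and 2.82-fold lower in the 3 libraries. *Efna5* was low in the pericyte-like classes, at 8.24 CPM in the proximal and 5.93 CPM (9 UMIs) in the distal library. Its proximal level was 9.95 CPM in the *Ccl11*-led cluster of that class and 5.60 CPM (19 UMIs) in the one led by *Rgs5* and *Myh11*.

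Among the named classes, several with skeletal, joint or tendon markers held high levels of *Epha5*, *Epha3* or *Epha7*, and others of that kind did not. *Epha5* reached 152 CPM in E16.5 proximal tenocyte-like cells led by *Tnmd* and *Scx* (5.61-fold over the rest), 215 in E16.5 distal joint-like cells led by *Gdf5* (4.6-fold), 164 in E14.5 perichondrial-like cells (3.29-fold) and 119 in E13.5 chondrocyte-like cells (3.54-fold). The E13.5 tenocyte-like cells were at 17.2 CPM, 2.59-fold below the rest, and the E16.5 distal chondrocyte-like cells at 21.8 CPM, 2.32-fold below. *Epha3* was high in perichondrial-like cells of the E16.5 proximal library with *Alpl* and *Omd* among their leading genes (108 CPM, 4.07-fold), in distal joint-like cells (70.8 CPM, 4.33-fold) and in E13.5 tenocyte-like cells (110 CPM, 2.62-fold), and was low in chondrocyte-like cells of E13.5 (15.3), E14.5 (7.05) and E16.5 proximal (5.16 CPM). *Epha7* was high in the E11.5 chondrocyte-like cluster (209 CPM, 2.16-fold), in the E14.5 perichondrial-like cluster (119 CPM, 2.51-fold) and in an unnamed E13.5 cluster led by *Gdf5* and *Scrg1* (286 CPM). The highest *Epha3* cluster of E13.5 (127 CPM, led by *Stmn2*, *Islr2* and *Aldh1a3*) and the highest *Epha7* cluster of the E16.5 distal library (85.9 CPM, led by *Grin2a*, *Ccbe1* and *Pcdh20*) had no class name.

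For the remaining receptors, several of the clusters with the highest levels had no cell type name. *Epha4*, *Ephb2* and *Ephb3* were past 2-fold in 3 of 31, 4 of 31 and 3 of 25 class ratios, where 10.5% over all genes were. *Epha4* was at 257 CPM in an E16.5 distal cluster named distal limb bud mesenchyme-like from its markers and led by *Kcne1l*, *Lhx9* and *Lrp1b* (2.69-fold), against 20.2 in dermal fibroblast-like cells of that library, and *Efnb2* was at 104 CPM (2.40-fold) in the same cluster. In the whole limbs the *Epha4* maxima were *Tfap2b*-led clusters in both libraries (357 and 332 CPM), and *Epha3* peaked in *Gata6*- and *Dync1i1*-led clusters (49.3 and 58.6 CPM). *Efnb2* was highest there in clusters with *Pax1* among their leading genes, 94.2 and 102 CPM. *Ephb1* reached 58.0 CPM in an E14.5 cluster of 461 cells led by *Nkain3*, *Islr2* and *Rbp4* and 38.4 CPM in an E16.5 distal cluster of 731 cells led by *Snhg11*, *Islr2* and *Dab1*, while no E16.5 proximal cluster held more than 2.44 CPM. *Ephb2* and *Ephb3* were highest at E16.5 proximal in a *Foxd1*- and *Sox18*-led dermal fibroblast-like cluster (66.2 and 14.2 CPM). *Efnb1* peaked at 201 CPM in an E13.5 cluster led by *Stmn2*, *Crtac1* and *Lhx2* and was low in tenocyte-like cells at E16.5 (15.5 and 12.1 CPM). At E14.5, however, its highest cluster was tenocyte-like (160 CPM, 71 cells led by *Lrmp*, *Eya1* and *Aqp1*). The same cluster was the highest of that library for *Epha4* (309 CPM) and *Efnb2* (159 CPM).

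**Figure D4:**
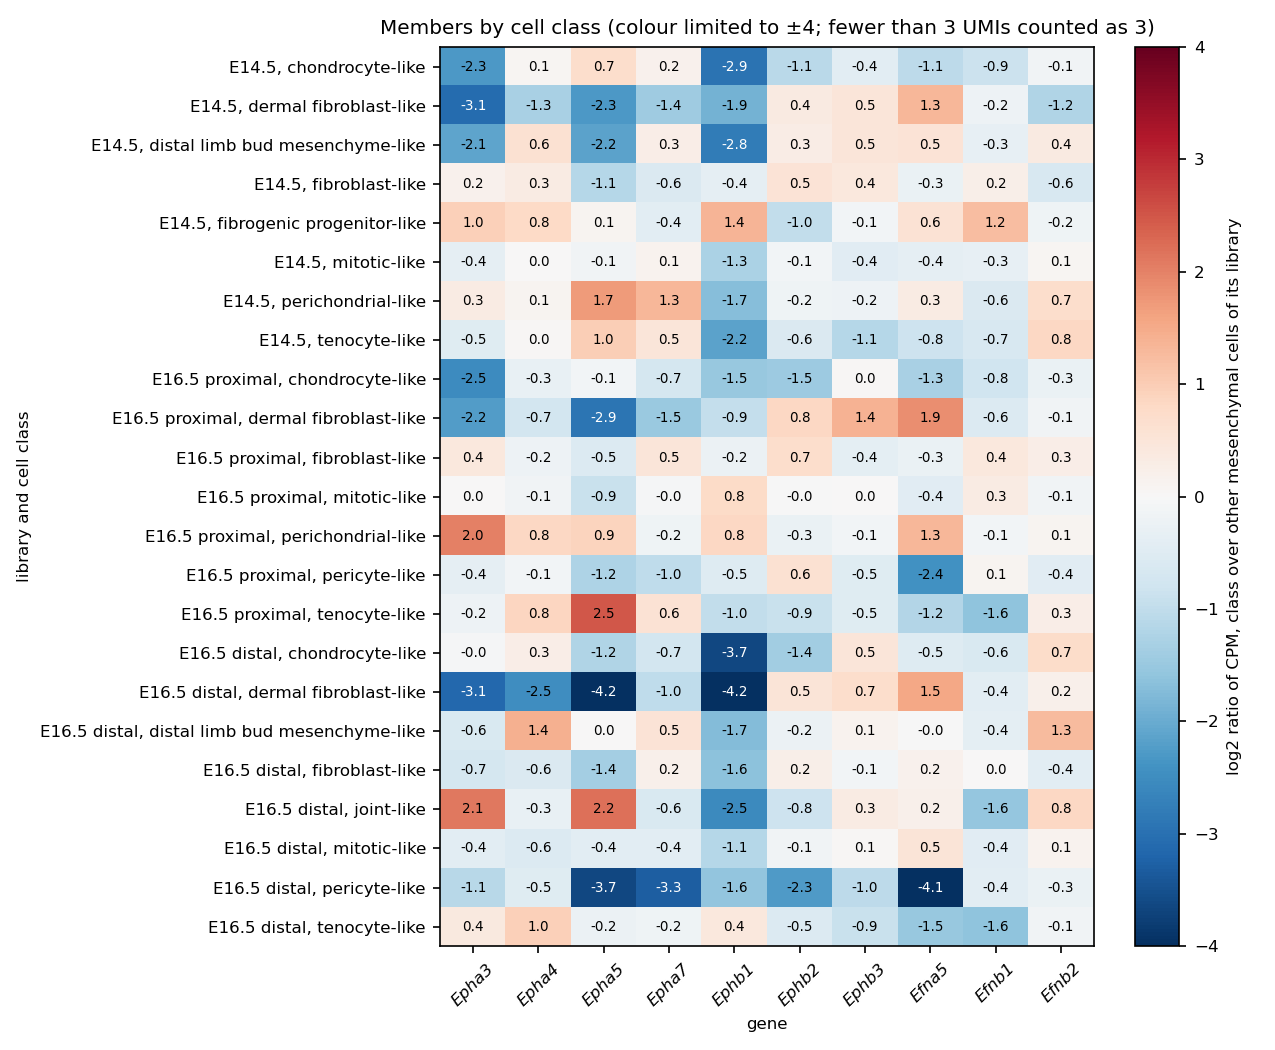
Log2 ratio of CPM of the 10 genes (columns) in each named class of the E14.5 library and of both E16.5 libraries (rows) over the other mesenchymal cells of its library, red for higher and blue for lower, limited to a log2 of 4 either way. Dermal fibroblast-like rows are red for *Efna5* (2.90-fold at E16.5 distal) and blue for *Epha3* and *Epha5* (8.77-fold and 18.7-fold lower there).

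**Figure D5:**
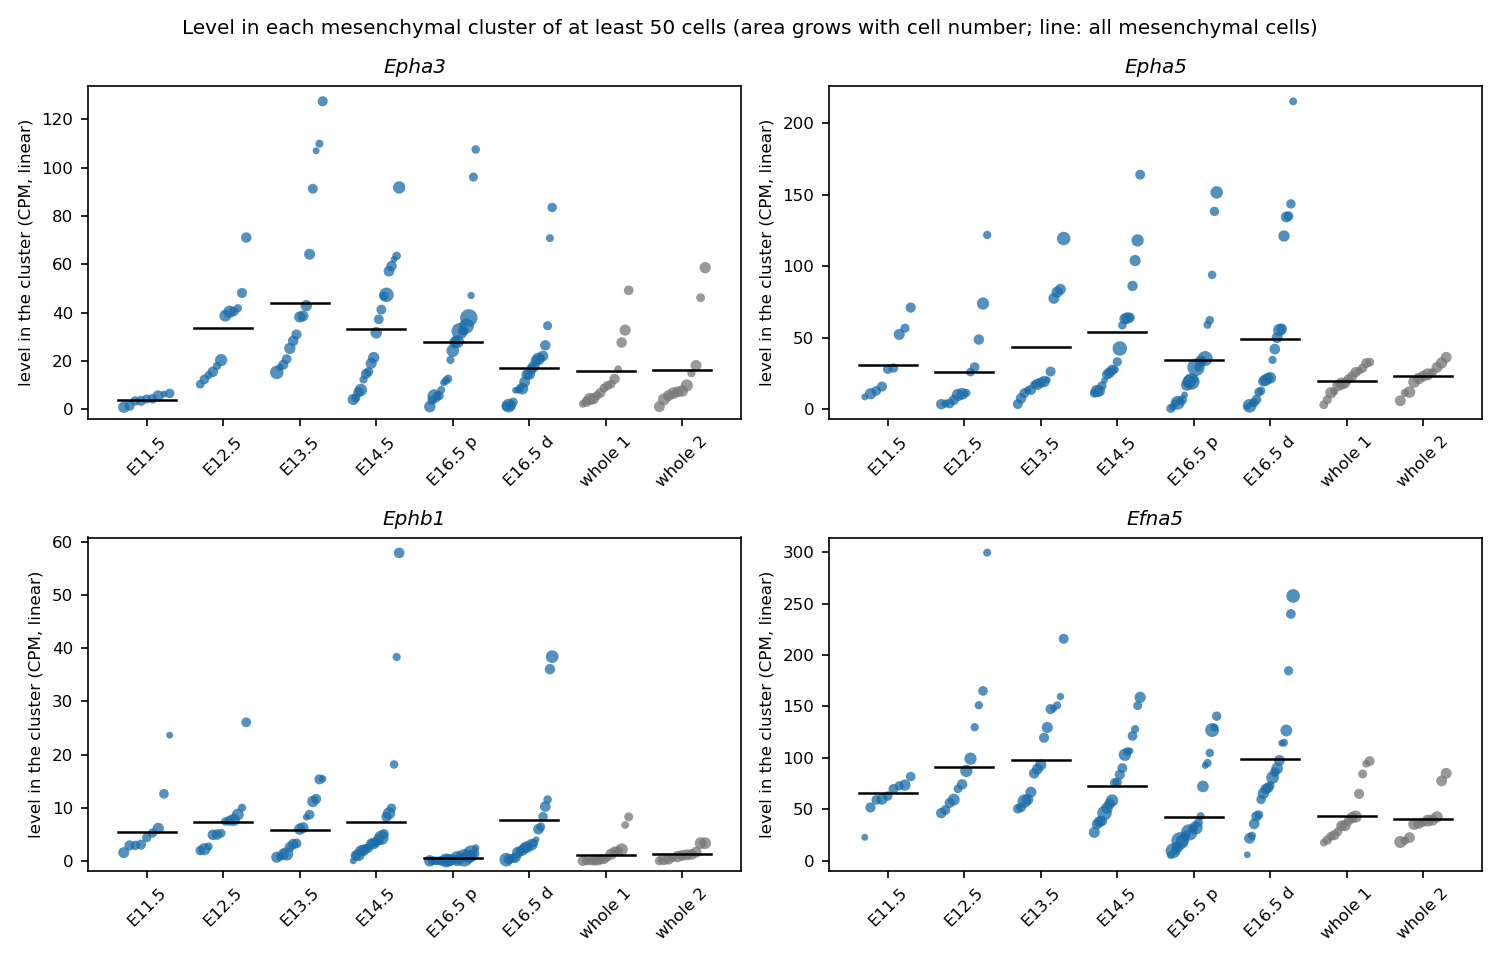
Level (CPM, linear axis) of *Epha3*, *Epha5*, *Ephb1* and *Efna5* in each mesenchymal cluster of at least 50 cells, by library; point area grows with cell number, and lines mark the level over all mesenchymal cells. *Epha5* spans 0.621 to 152 CPM in the E16.5 proximal library, and *Ephb1* reaches 58.0 CPM in a single E14.5 cluster.

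The rest of the family holds 12 genes, of which 8 reached 5 CPM in a library. The 10 of these 12 that could be tested between sorted and whole E11.5 cells were all called, 5 in each direction, where 53.2% of all genes were called: *Epha2* was 2.38-fold lower in sorted cells (11.7 against 25.4 and 23.8 CPM) and *Ephb6*, a receptor without kinase activity, 2.68-fold higher (10.2 against 3.17 and 3.54 CPM). *Efna1* (-0.60), *Efna2* (-0.44) and *Efna4* (-0.41) were lower, and *Efna3* (0.66), *Efnb3* (0.57) and *Ephb4* (0.30), the venous partner of ephrin-B2, were higher. Between Hox13 and Meis cells 7 of 9 were called (3 higher, 4 lower) against 52.1% of all genes, and the A-type ligand *Efna1* had the largest difference of the whole family, 6.04-fold higher in Hox13 cells (34.2 against 6.34 and 42.9 against 6.80 CPM, 2.59 ± 0.10, edgeR adjusted p = 1.51e-133). *Epha2* was 3.53-fold higher there (36.9 against 11.2 and 34.4 against 9.55 CPM). *Efnb3* (-0.88), *Efna3* (-0.81), *Ephb6* (-0.73) and *Efna2* (-0.20) were lower. In myogenic cells 7 of 9 were called against 41.4% of all genes, with *Efna1* alone higher (0.51 ± 0.12) and 6 lower, among them *Efnb3* (-1.67), *Epha2* (-1.11), *Ephb4* (-0.66), *Efna2* (-0.47) and *Efna4* (-0.25).

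Genes that carry Eph and ephrin signals inside the cell were counted from a list of 35. Sorted and whole E11.5 cells differed in 20 of 34 tested (7 higher, 13 lower; median -0.13), where 53.2% of all genes tested were called, for example in the kinase *Src* (0.53 ± 0.12), the PDZ adaptor *Pick1* (0.56 ± 0.13), the cytoskeletal kinase *Rock2* (-0.83 ± 0.10), the exchange factor *Itsn1* (-0.69 ± 0.12) and the Rac inhibitor *Chn2* (-0.67 ± 0.18). Hox13 and Meis cells differed in 13 of 32 (6 higher, 7 lower), against 52.1% of all genes, with the exchange factor *Vav2* (0.62 ± 0.16), *Chn1* (0.50 ± 0.07), which acts below EphA4, and *Grip1* (0.37 ± 0.14) higher and *Kalrn* (-0.55 ± 0.11), *Sipa1l1* (-0.41 ± 0.08) and *Pick1* (-0.38 ± 0.09) lower. Myogenic cells differed in 7 of 33 (3 higher, 4 lower), against 41.4% of all genes. *Arhgef15*, an exchange factor bound by EphA4, was higher in both libraries (6.65 against 0.386 and 5.09 against 0.271 CPM, 4.30 ± 0.42), as were the kinase *Fyn* (0.89 ± 0.11) and the adaptor *Grip1* (0.86 ± 0.18), while *Kalrn* (-0.58 ± 0.20), *Chn1* (-0.50 ± 0.11) and the syntenin gene *Sdcbp* (-0.48 ± 0.05) were lower.

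Genes with the most similar pattern were sought over 37 classes of at least 100 cells in the 6 sorted libraries, among 6134 genes outside the family, by Pearson's r of log2(CPM + 1). The classes share libraries, kits and depth, so r is a description without a test. The values ran from 0.67 for *Efnb2* with *Cdc73* and *Lhx9* to 0.91 for *Epha7* with *Wdr6* (followed by *Cnot8*, 0.90). *Ephb2* came with the kinase gene *Fyn* (0.90) and *Add1* (0.88), *Ephb3* with *Rpl29* (0.89) and *Spag7* (0.88), and *Efnb1* with *Snx1* (0.88) and *Pigx* (0.86). *Epha3* came with *Shisa5* (0.83) and *Pamr1* (0.78), *Epha4* with *Slc38a1* (0.82) and *Six4* (0.81), and *Epha5* with *Klhdc10* and *Rgs3* (0.76 each). For *Ephb1* the nearest were *Cxxc4* (0.72) and *Hoxd12* (0.69), a gene of the distal limb, and for *Efna5* the guidance gene *Sema3f* (0.76) and *Prrx2* (0.73), a homeobox gene of limb mesenchyme.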

How the data were processed

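Mouse forelimb cells were measured in 8 droplet libraries, 6 sorted and 2 of whole limb, grouped from the GEO labels. The authors deposited raw UMI counts per gene and barcode, made with Cell Ranger against a modified mm10 reference; per the file headers, 5 sorted libraries used version 3.0.2 and the E16.5 distal library 6.0.1, and the whole limb headers name none; the study's reporting summary gives a single version for all single-cell data that is neither of these. No value was normalized before deposit. The members and all lists were chosen with earlier results of these data known.

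Cells with at least 3000 UMIs and at most 10% mitochondrial UMIs were kept. Each library was clustered alone (scanpy 1.11.5, 2000 variable genes, 50 components, 25 neighbours, Leiden resolution 1), leaving out 87 genes, among them all Eph, ephrin and Hox genes. A cluster was named from fixed markers where at least 3 were raised (log2 fold of 1, 10% of cells). Its 10 leading genes could not hold more markers of another class, and shallow clusters with no own marker among them stayed unnamed. A further rule was added after the clusters were seen. It gave clusters left unnamed a non-mesenchymal class with at least 3 raised markers and 3 among the leading genes. Names are rebuilt and may differ from the study's. Doublets were scored by simulation; 0.506% to 1.99% of cells per library scored over 0.25, and cells were kept unless stated. Pairs of libraries shared at most 54 barcodes, and at most 1.08% of the smaller library in any pair.

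UMIs were summed per library and cell group and tested with edgeR 4.0.16 (TMM, filterByExpr, quasi-likelihood, Benjamini-Hochberg over all genes, threshold 0.05; R 4.3.3), with 1 residual degree of freedom and a biological coefficient of variation of 8.68%, 1.49% and 1.43% in the 3 comparisons in the order of the report. Each SE was worked back from the test, as the absolute log2 fold change over the square root of the quasi-likelihood F statistic. It is therefore no separate measure of spread. Library was a block where cell groups of the same libraries were compared. Single libraries were compared by CPM with 95% Poisson intervals, a floor of 3 UMIs and a 2-fold limit among genes at 5 CPM or more. Classes had at least 50 cells. Tested on simulated counts with 200 genes changed 4-fold, edgeR recovered 198 (15 false calls) for sorted against whole cells, 200 (0 false calls) for Hox13 against Meis cells and 188 (10 false calls) for myogenic cells. All simulated libraries were drawn with the fitted spread, so these counts do not measure false calls in the real comparisons.

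All 10 members were named; of the rest of the family those at 5 CPM or more in any library; of the 35 signalling genes the 3 called genes with the largest change in each direction per test (1 of them is not reported here); and per member the 2 most correlated genes. Alternatives were DESeq2 1.42.0, limma 3.58.1, other size factors, no filter, thinned cells, no doublets, no mitochondrial limit, other cell groups and other class definitions.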

Additional observations from a re-analysis of the deposited data

How the results depend on the processing

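Separate fits between sorted and whole cells called 5018 genes with Meis cells only, 4411 without the filter on low counts and 4870 with DESeq2, where the reported fit called 8039. Between Hox13 and Meis cells the reported fit called 6687 genes and separate fits 4431 after thinning, 2815 with DESeq2 and 4048 without the library block, and between myogenic and mesenchymal cells 5534, with 2629 after thinning and 2795 with DESeq2. Between the E16.5 segments, 1081 genes were past 2-fold with all filtered cells in place of 715. Ratios of the 10 genes at any level were taken over classes of all 6 sorted libraries, each against the other cells of its library. Of these, 26.8% were past 2-fold, and 11% with the overlapping marker sets in place of clusters. The number of the 10 genes called was 7 to 10, 8 to 9 and 6 to 7 in the 3 tests under all these alternatives. Over all genes, the fits with the fewest and the most calls had 4411 of 20174 and 8075 of 15341 for sorted cells. They had 2815 of 12824 and 6813 of 12570 for Hox13 cells and 2629 of 11701 and 6501 of 13372 for myogenic cells. Signs turned for *Efna5* (-0.16) and *Efnb2* (-0.73) between sorted and whole Meis cells, for *Epha5* between Hox13 and Meis cells (0.14 after thinning, 0.020 with at least 2 Hox13 UMIs) and, after thinning, for *Epha5* (-0.30) and *Ephb1* (0.50) in myogenic cells; *Epha5* and *Ephb1* were not called there. Class log2 ratios turned for *Epha3* in E11.5 chondrocyte-like cells (0.33, markers) and, among E16.5 distal classes, for *Epha5* in chondrocyte-like (0.53 clustered together, 0.51 markers) and fibroblast-like cells (0.40, markers), *Ephb1* in fibroblast-like cells (0.21, markers), and in pericyte-like cells *Epha3* (0.093 together, 0.31 markers), *Epha7* (0.079, markers), *Ephb2* (0.53 together, 0.16 markers) and *Ephb1* (1.02, thinned). Thinning also turned *Ephb1* in E13.5 tenocyte-like (0.18) and E16.5 proximal chondrocyte-like cells (1.63), both on 0 or 1 UMI. The cause was not tested.

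The library block pairs cell groups taken from the same library. Without the replicate block, 8 of the 10 genes were called between Hox13 and Meis cells, *Ephb3* being the one lost, and 7 between myogenic and mesenchymal cells, where 3921 genes were called. Leaving out a whole limb library leaves no residual degrees of freedom, so those are log2(CPM + 1) ratios with no test. Library totals in place of TMM, chosen after seeing the data, gave 5407 higher and 2432 lower calls for sorted cells (4048 and 3991 with TMM; 2021 and 2849 with DESeq2), 2870 and 3756 for Hox13 cells (3398 and 3289) and 1908 and 4593 for myogenic cells (2937 and 2597).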
